A study of Homo sapiens with 9 samples.

Results

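The genes described here are the zinc finger genes of human chromosome 19 that were transcribed in MDA-MB-231 cells. They are the protein-coding genes of that chromosome whose symbol is ZNF followed by a number, and optionally 1 letter, and whose mean level over all 9 libraries was at least 1 FPKM (fragments scaled to the length of the gene and the size of the library). Of 246 such genes at any level, 157 met that level, out of 58735 genes in the deposited table. Of the other genes of the family, 9 were listed at 0 in every library, 48 lay above 0 and under 0.5 FPKM, and 32 lay between 0.5 and 1 FPKM. The members were chosen by that mean level, so levels are given as a description, and the choice used no difference between groups.

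All libraries came from MDA-MB-231, a human breast cancer line with mesenchymal features, labelled wild type. In the TIS CM group, cells were kept in medium taken from MDA-MB-231 cells made senescent by 72 h of nocodazole at 100 ng/ml, a drug that depolymerizes microtubules. In the Cont CM group the medium came from non-senescent MDA-MB-231 cells, and in the No CM group cells had plain medium. Each group held 3 libraries of polyadenylated RNA. The time in these media is 72 h by the sample labels and 48 h by the design text, and the files do not settle which applies. The labels do not say that replicates were separate cultures, so each p-value reflects the spread among these libraries alone, and that spread may be technical.

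Most C2H2 zinc finger proteins bind DNA through a tandem array of fingers, each folded around a zinc ion. In the largest class the fingers follow a KRAB box, a short domain that recruits the scaffold protein TRIM28, which in turn brings histone methyltransferases and heterochromatin proteins to the bound site. Many of these KRAB proteins silence transposable elements. Their genes arose by repeated duplication and lie in clusters, most of them on chromosome 19 in humans, where neighbours share much of their sequence.

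Libraries held 32636708 to 39189036 fragments on genes, with 22637 to 23295 genes above 0. The cells carried the markers of their line, with VIM at 345 to 401 FPKM and AXL at 195 to 218 FPKM, while ESR1 did not exceed 0.00801 FPKM and PGR did not exceed 0.00539 FPKM. EPCAM, at 7.58 to 10.1 FPKM, and ERBB2, at 7.92 to 9.59 FPKM, were not near 0, and CDH1 lay between 0.212 and 1.23 FPKM. Markers of immune cells did not exceed 0.0885 FPKM, and of the endothelial markers PECAM1 lay at 0.313 to 0.586 FPKM while CDH5 and VWF did not exceed 0.0604 FPKM. Of the fibroblast markers, DCN was listed at 0 throughout, LUM lay at 0.149 to 0.449 FPKM and PDGFRB at 0.968 to 1.52 FPKM. Cont CM replicate 2 stood apart, in that its values moved with the GC content of genes more than those of any other library, as described with the results below.

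The promoters of 4 members are printed as examples of the family's start sites, among them those of ZNF563 and ZNF146, which passed a test. RefSeq promoters (GRCh38.p14, 250 bases before to 50 after the start) were matched by symbol for 139 of the 157 members. The letters CCGGAAG, the core bound by ETS factors, searched on both strands, stood in 62 of 139 member promoters, 44.6%. They stood in 34.5% of 148 promoters of zinc finger genes on other chromosomes, in 20.6% of 8433 promoters of protein-coding genes with a mean of at least 1 FPKM, and in 10.6% of all 27305 promoters of the same length. Where a gene had more than 1 promoter, the member promoter was the one nearest its listed start. The comparison sets took the one of lowest coordinate, so these shares do not compare like promoters. Within the family the letters CCGGAAG stood in 48.7% of promoters of members with a KRAB box and in 25% of those without one. The first and second sequences below, of ZNF274 and ZNF91, hold these letters on the other strand (CTTCCGG, in capitals). The next, of ZNF563 and ZNF146, belong to genes that rose in Cont CM and hold none. The promoters of ZNF331 and ZNF420, which were not called, hold none either. The start matched for ZNF420 lay 70365 bases from its listed start, that for ZNF331 1487 bases and that for ZNF146 504 bases. These promoters therefore do not cover the listed starts of their genes. No promoter was matched for ZNF473 and ZNF524, which were called. A link between these letters and the calls was not tested. All are on chromosome 19: ZNF274 at 58182811 to 58183110 on the plus strand, ZNF91 at 23395422 to 23395721 on the minus strand, ZNF563 at 12333584 to 12333883 on the minus strand, and ZNF146 at 36214856 to 36215155 on the plus strand.
ZNF274: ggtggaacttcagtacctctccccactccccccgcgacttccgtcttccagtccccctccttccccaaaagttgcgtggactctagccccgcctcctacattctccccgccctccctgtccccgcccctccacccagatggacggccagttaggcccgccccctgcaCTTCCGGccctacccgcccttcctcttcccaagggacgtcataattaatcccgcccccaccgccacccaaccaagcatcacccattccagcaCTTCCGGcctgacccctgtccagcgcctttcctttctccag
ZNF91: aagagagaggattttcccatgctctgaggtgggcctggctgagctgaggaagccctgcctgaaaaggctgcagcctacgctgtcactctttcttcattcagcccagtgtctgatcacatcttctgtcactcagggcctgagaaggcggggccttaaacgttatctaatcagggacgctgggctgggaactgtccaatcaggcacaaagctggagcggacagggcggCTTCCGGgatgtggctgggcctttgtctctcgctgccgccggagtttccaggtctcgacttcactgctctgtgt
ZNF563: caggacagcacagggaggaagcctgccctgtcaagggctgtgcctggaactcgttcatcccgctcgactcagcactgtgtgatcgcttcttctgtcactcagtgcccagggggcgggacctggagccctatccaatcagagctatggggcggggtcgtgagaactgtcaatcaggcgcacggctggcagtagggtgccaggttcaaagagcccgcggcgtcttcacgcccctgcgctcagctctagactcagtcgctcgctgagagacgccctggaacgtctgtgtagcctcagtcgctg
ZNF146: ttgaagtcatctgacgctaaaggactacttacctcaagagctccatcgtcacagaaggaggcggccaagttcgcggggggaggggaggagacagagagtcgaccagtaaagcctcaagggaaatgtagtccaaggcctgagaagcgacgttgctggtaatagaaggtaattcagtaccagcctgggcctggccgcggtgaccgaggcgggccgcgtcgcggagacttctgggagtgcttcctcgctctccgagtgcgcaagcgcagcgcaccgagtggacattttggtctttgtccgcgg

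The letters CCAAT, on either strand, stood in 53.2% of member promoters, against 36.8% for protein-coding genes with a mean of at least 1 FPKM and 35.6% for all promoters. Again the share was higher with a KRAB box, at 59.1%, than without one, at 25%. TATAAA was found in 2.16% of member promoters, against 5.09% for protein-coding genes with a mean of at least 1 FPKM and 12.1% for all promoters. The GC box GGGCGG stood in 66.9% of member promoters, and in 71.3% and 43.8% of those same sets. AANATGGC, the core bound by YY1, stood in 15.1%, against 11.0% and 6.78%, and the NRF1 motif in 3.6%, against 2.4% and 1.31%. All were searched on both strands, and none of the motifs holds the letters of another. A match is a run of letters and not a shown binding site. Here too the promoters of members and of the comparison sets were chosen differently.

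The family was transcribed at low levels. The median member had a mean of 2.14 FPKM, 70 members lay under 2 FPKM, 16 lay above 5 FPKM and 7 above 10 FPKM. ZNF146, whose protein consists almost wholly of fingers, was the highest at 36.7 FPKM. Below it in order of level came ZNF358 at 18.97 FPKM, ZNF428 at 17.4 FPKM, ZNF787 at 15.4 FPKM, ZNF580 at 13.2 FPKM and ZNF114 at 13.1 FPKM. Of these 6, ZNF114 alone has a KRAB box in its coding sequence. Each of the 5 genes below ZNF146 overlapped its neighbour in that order, as ZNF358, at 16.53 to 20.97 FPKM over the libraries, did with ZNF428, at 14.95 to 19.48 FPKM. ZNF146 overlapped none of them, with a lowest library of 33.6 FPKM.

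Just inside the threshold lay ZNF549 at a mean of 1.005 FPKM, ZNF418 at 1.04 FPKM and ZNF708 at 1.043 FPKM, and just outside it lay ZNF671 at 0.9966 FPKM, ZNF441 at 0.9896 FPKM and ZNF461 at 0.9892 FPKM. The choice at 1 FPKM therefore fell in a continuous range of levels. Summed over all members, the family held 498 ± 4.44 FPKM in TIS CM, 509 ± 9.1 FPKM in Cont CM and 500 ± 10.8 FPKM in No CM (SD, n = 3 each). The libraries of the 3 groups overlapped, at 493 to 502 FPKM in TIS CM, 499.7 to 518 FPKM in Cont CM and 489 to 511 FPKM in No CM. Of all fragments, the members took 0.2346% to 0.2348% in TIS CM, 0.2393% to 0.2475% in Cont CM and 0.2349% to 0.2444% in No CM. By this share all TIS CM libraries lay below those of both other groups, by little for No CM replicate 3. The difference in share was not tested.

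**Figure D1:**
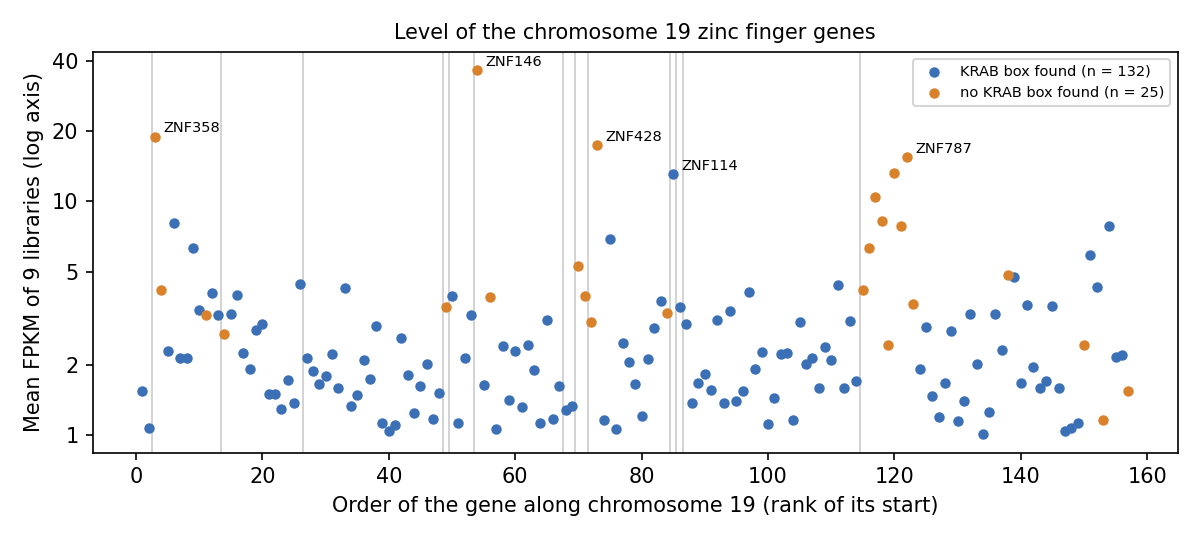
Mean level of each of the 157 members over 9 libraries in FPKM (log axis), in the order of their starts along chromosome 19. Blue points are members whose coding sequence holds a KRAB box and orange points those in which none was found, and grey lines part the gene clusters; ZNF146 at 36.7 FPKM is the highest, and 6 of the 7 members above 10 FPKM are orange.

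A KRAB box was found by a pattern in the translated coding sequences of 132 members and not found in 25. Throughout, members without a KRAB box are those in which the pattern found none, and it may miss a box. The classes differed in more than that box. Members with it had a median of 13 fingers, a median level of 1.92 FPKM and a median transcript GC content of 42.0%. Members without it had a median of 8 fingers, a median level of 4.15 FPKM and a median GC content of 61.3%. ZNF91, which in humans restrains SVA retrotransposons, had the most fingers, at 32. The number of fingers is a count of pattern matches.

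The depth behind a member's value was modest. A member had a median of 409 fragments per library, which gives a counting error of 4.94%, and means ran between 83.9 fragments for ZNF256 and 5480 for ZNF146. Counting error is only part of the spread between libraries: the median coefficient of variation of a member was 6.51% in TIS CM, 7.54% in Cont CM and 6.54% in No CM. Sequence sharing also limits some values, since 17 members shared over 10% of their 75-base windows with other genes of the annotation, while 75 shared none. ZNF468 shared 99.15% of its windows and overlaps ZNF28 on the same strand, and ZNF724 shared 52.6%, so both levels are uncertain. Among the highest members, ZNF358 shared 18.5%, and ZNF580 overlaps ZNF581 on the same strand. A tested gene overlapped 51 members on either strand, and no source gives the strand setting of the counting.

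The comparison of TIS CM with Cont CM asks what the senescent cells' medium did beyond that of non-senescent cells. None of the 157 members was called higher or lower by limma, at a Benjamini-Hochberg adjusted p under 0.05 over all 13912 tested genes. Of all tested genes, 2.9% were called higher and 1.57% lower. Among the 4813 tested genes with a mean of 1 to 5 FPKM, 2.41% were called, against 0 of the 141 members in that range. At an unadjusted p under 0.05, 4 members were higher and 9 lower, 8.28% of the members, against 23.4% of all tested genes. Among genes with a mean of 1 to 5 FPKM the shares were 5.67% of members and 18.1% of those tested. With voom on fragments recovered from the deposited values, 7.8% of genes were called, among them 1 member, ZNF146, as lower.

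The bounds on these differences were narrow. The 95% interval of the TIS CM over Cont CM difference lay inside a 1.5-fold change either way for all 157 members in the limma fit, against 88.7% of all tested genes. It did so for 97% of protein-coding genes with a mean of at least 1 FPKM, so narrow bounds were common among such genes. In the voom fit, which does not add 0.5 FPKM to each value, it did so for 152 of 157 members, 96.8%. The share of those protein-coding genes was then 95.1%. The log2 fold changes on the log2(FPKM + 0.5) scale, which understates changes of low genes, ran between -0.31 for ZNF350 and 0.21 for ZNF787. The groups did not overlap for 6 members that were higher and 21 that were lower in TIS CM, 17.2% of the members, against 28.6% of all tested genes. At a mean of 1 to 5 FPKM it was 15.6% of members and 23.7% of tested genes.

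ZNF350 encodes a repressor known to act with BRCA1, and it is named here because it had the lowest fold change, so it was chosen after its values were seen. It had 1.69, 1.67 and 1.26 FPKM in TIS CM, against 2.12, 2.12 and 1.82 FPKM in Cont CM. All TIS CM libraries lay below all Cont CM libraries, and TIS CM replicate 3 was the lowest. The log2 difference was -0.31 ± 0.10 (SE, n = 3 each), with an adjusted p of 0.107 by limma. ZNF787 had 16.5, 15.9 and 16.9 FPKM in TIS CM, against 15.8, 12.9 and 13.8 FPKM in Cont CM. The groups met without overlapping, with Cont CM replicate 1 near the TIS CM libraries, and the log2 difference was 0.21 ± 0.07 (SE, n = 3 each) with an adjusted p of 0.125 by limma. ZNF146 had the lowest adjusted p among the members, 0.0784 by limma, with a log2 difference of -0.18 ± 0.05 (SE, n = 3 each).

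Across the family the differences leaned to one side. The log2 fold change in TIS CM over Cont CM was below 0 for 109 members and above 0 for 48, with a median of -0.05, against 0.003 over all tested genes. The median was -0.04 for the 175 zinc finger genes of other chromosomes and 0.09 for the 590 other protein-coding genes of chromosome 19, both with a mean of at least 1 FPKM. The classes lay on opposite sides. Members with a KRAB box had a median of -0.06, with 30 of 132 above 0. Members without one had a median of 0.07, with 18 of 25 above 0.

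GC content moved with these differences. Across the members, the log2 fold change of TIS CM over Cont CM had a correlation of 0.58 with transcript GC content, against 0.33 across all tested genes, where points share libraries and neighbouring sequence. Within the class without a KRAB box the correlation was 0.73, and within the class with it 0.17. After the trend of each library with GC and gene length, fitted over all tested genes, was removed, the members' correlation was -0.051. The median of members with a KRAB box was then -0.02, with 53 of 132 above 0, and that of members without one was -0.02, with 9 of 25 above 0. The opposite signs of the classes were therefore not seen once the trend was taken out, and the median over all members was -0.0242, with 62 above 0.

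**Figure D2:**
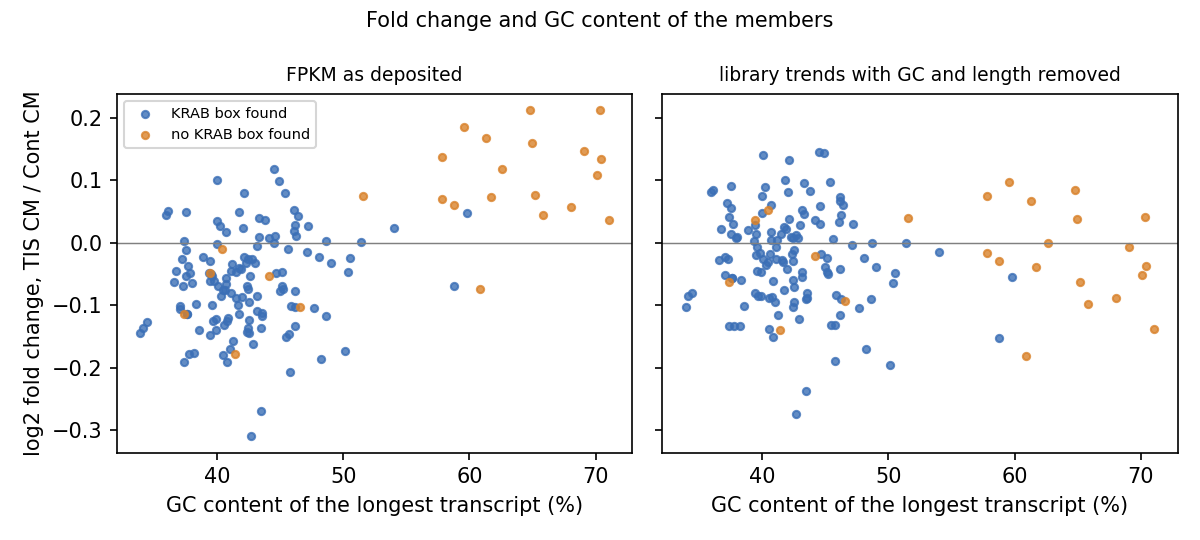
Log2 fold change of TIS CM over Cont CM on the log2(FPKM + 0.5) scale against the GC content of the longest transcript, for members with a KRAB box (blue) and without one (orange). On the left, with FPKM as deposited, the correlation over all members is 0.58; on the right, with the GC and length trend of each library removed, it is -0.051.

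The libraries behind that pattern were not equal. In Cont CM replicate 2, GC content and length accounted for 17.7% of the variance of all tested genes' deviations from their means, against 0.622% to 5.48% in the other 8 libraries. In that library the median log2 deviation was 0.07 for members with a KRAB box and -0.10 for members without one. Cont CM replicate 3 had -0.09 for members without a KRAB box, while Cont CM replicate 1 had 0.04 for them. TIS CM replicate 3 leaned the other way, with -0.05 with a KRAB box and 0.08 without one. Without Cont CM replicate 2, the median TIS CM over Cont CM difference was -0.04 for members with a KRAB box, with 36 of 132 above 0, and 0.05 for members without one, with 18 of 25 above 0. Over all single omissions these medians ran over -0.0757 to -0.0438 and 0.0428 to 0.148, the last without Cont CM replicate 1. The part of GC content in these differences was measured only by removing its trend, and what lies behind the trend was not tested.

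**Figure D3:**
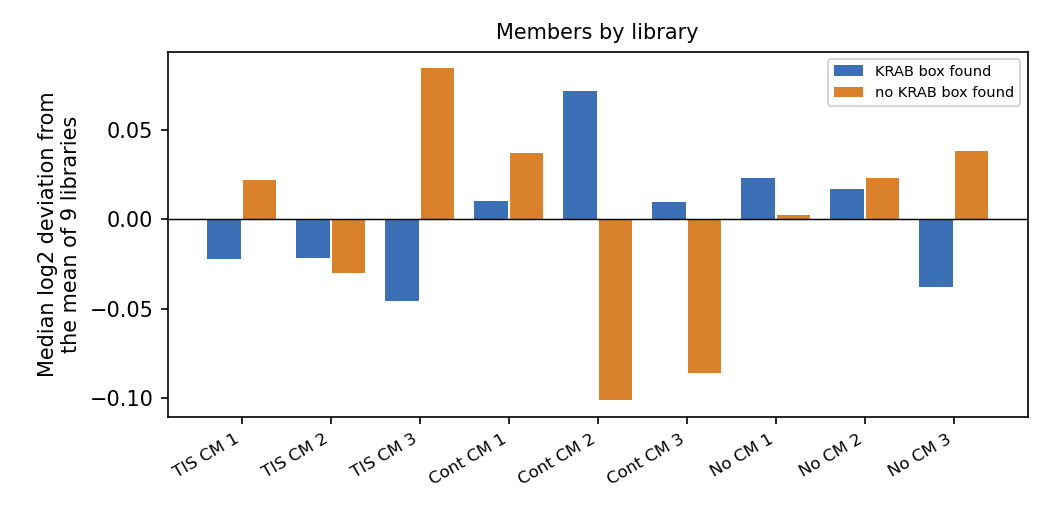
Median log2 deviation from the mean of all 9 libraries, for the 132 members with a KRAB box (blue bars) and the 25 without one (orange bars), in each library of TIS CM, Cont CM and No CM. The classes are farthest apart in Cont CM replicate 2, at 0.07 and -0.10, and in TIS CM replicate 3, at -0.05 and 0.08.

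Cont CM was set against No CM to ask what the medium of non-senescent cells did. Limma called 3 members higher, ZNF146, ZNF473 and ZNF563, and 1 lower, ZNF524. That is 2.55% of the members, while 7.77% of all tested genes were called higher and 8.56% lower. Of tested genes with a mean of 1 to 5 FPKM, 13.2% were called, against 2 of 141 members in that range, 1.42%. The members were therefore called at a lower rate than other genes of the same level, and no test of that gap was made. At an unadjusted p under 0.05, 12 members were higher and 3 lower, 9.55% against 31.3% of all tested genes. Among genes with a mean of 1 to 5 FPKM the shares were 8.51% of members and 26.7% of those tested. With voom, 5 were called higher and 0 lower, where 19.4% of all tested genes were called.

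ZNF146 lies at 36214602 to 36238774 on the plus strand of chromosome 19 (hg38). It had 37.0, 42.2 and 40.3 FPKM in Cont CM, against 35.1, 35.5 and 34.3 FPKM in No CM. All Cont CM libraries were above all No CM libraries, and Cont CM replicate 1 was the closest to them. The log2 difference was 0.18 ± 0.05 (SE, n = 3 each), a 1.14-fold rise, with an adjusted p of 0.0386 by limma. In TIS CM the gene had 33.6, 35.8 and 36.0 FPKM, a range that overlaps No CM, and its TIS CM over No CM difference was 0.01 ± 0.05 (SE, n = 3 each). ZNF565 overlaps it on the other strand.

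ZNF473, at 50025714 to 50053414 on the plus strand, encodes a KRAB protein known for its part in processing the ends of replication-dependent histone transcripts. It had 3.70, 4.30 and 3.80 FPKM in Cont CM, against 3.23, 3.31 and 3.35 FPKM in No CM. The groups did not overlap, and Cont CM replicate 2 was the highest. The log2 difference was 0.22 ± 0.06 (SE, n = 3 each), a 1.17-fold rise, with an adjusted p of 0.0351 by limma. TIS CM libraries had 3.32, 3.46 and 3.41 FPKM, of which the first lay within the No CM range. VRK3 overlaps the gene on the other strand.

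ZNF563, at 12317477 to 12333720 on the minus strand, had the largest rise. It had 2.15, 2.21 and 1.83 FPKM in Cont CM, against 1.33, 1.64 and 1.47 FPKM in No CM. Every Cont CM library was above every No CM library, with Cont CM replicate 3 the closest. The log2 difference was 0.37 ± 0.10 (SE, n = 3 each), a 1.29-fold rise, with an adjusted p of 0.0311 by limma. In TIS CM it had 1.53, 1.84 and 1.51 FPKM. The gene rested on 137 to 225 fragments per library, a counting error of 7.53%.

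ZNF524, at 55600022 to 55603138 on the plus strand, encodes a protein known to bind telomeric DNA and has no KRAB box. It had 10.54, 8.862 and 9.057 FPKM in Cont CM, against 11.01, 11.94 and 10.95 FPKM in No CM. All Cont CM libraries were below all No CM libraries, by little in Cont CM replicate 1. The log2 difference was -0.24 ± 0.07 (SE, n = 3 each), 1.18-fold lower, with an adjusted p of 0.0414 by limma. In TIS CM it had 11.05, 10.11 and 10.75 FPKM, which overlaps both other groups. FIZ1 overlaps it on the other strand.

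**Figure D4:**
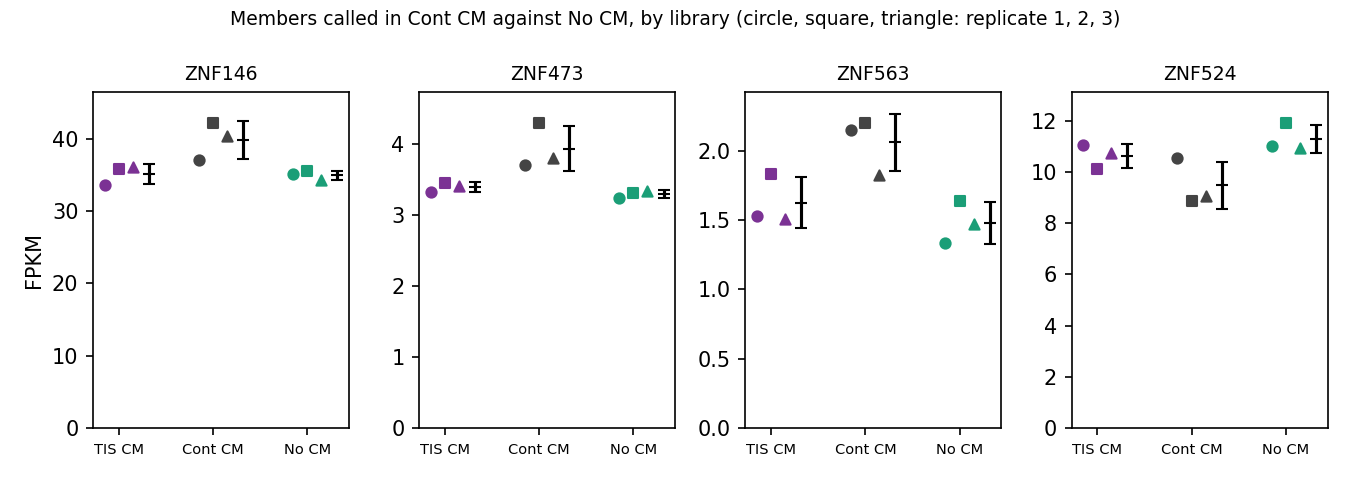
FPKM of the 4 members called in Cont CM against No CM, in each library of TIS CM (purple), Cont CM (grey) and No CM (green), with axes from 0; bars give the mean ± SD of 3 libraries. In all 4 panels the Cont CM and No CM libraries do not overlap, while TIS CM overlaps No CM, as for ZNF146 at 33.6 to 36.0 FPKM in TIS CM.

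None of these 4 calls held under every alternative. With the GC and length trend of each library removed, the adjusted p by limma was 0.0302 for ZNF473, 0.051 for ZNF563, 0.0835 for ZNF146 and 0.127 for ZNF524. With the trend removed, 2 members were called, ZNF473 as higher and ZNF507 as lower. Leaving out single libraries moved the count from 4 calls to 9 without Cont CM replicate 1, 0 without Cont CM replicate 2, 1 without Cont CM replicate 3, 0 without No CM replicate 1, 3 without No CM replicate 2 and 0 without No CM replicate 3. Leaving out TIS CM replicate 1, 2 or 3, which enter only the shared estimate of the spread, gave 2, 1 and 1 calls. In each of those fits all 4 genes kept their direction. Of all 13912 tested genes, 2272 were called in the main fit, and 1075 to 2770 when single libraries were left out. Under the other alternatives, among them removal of the trend, 1242 to 2694 genes were called.

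As in the first comparison, the family's differences were small. The 95% interval lay inside a 1.5-fold change for 154 of 157 members, 98.1%, in the limma fit and 147, 93.6%, in the voom fit. Those outside in the limma fit were ZNF784, ZNF563 and ZNF256. For protein-coding genes with a mean of at least 1 FPKM the shares were 93.9% and 91.4%. Log2 fold changes ran between -0.31 for ZNF784 and 0.37 for ZNF563. The groups did not overlap for 15 members that were higher and 8 that were lower in Cont CM, 14.6% of the members, against 33.3% of all tested genes. At a mean of 1 to 5 FPKM it was 14.2% of members and 30% of tested genes. The median was 0.03, with 96 members above 0 and 61 below, against -0.0006 over all tested genes. It was also 0.03 for zinc finger genes of other chromosomes, and -0.06 for other protein-coding genes of chromosome 19. Members with a KRAB box had a median of 0.04, with 89 of 132 above 0, and members without one a median of -0.06, with 7 of 25 above 0. With the GC and length trend removed, these medians were -0.005 and 0.05, and without Cont CM replicate 2 they were 0.02 and -0.02. Over all members the median was -0.00179 with the trend removed, with 77 above 0.

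The comparisons of TIS CM with Cont CM and of Cont CM with No CM share the Cont CM libraries, so opposite signs between them are not independent. For that reason TIS CM was also set against No CM. No member was called higher or lower by limma, where 0.403% of all tested genes were called higher and 0.453% lower, and 0.686% of those with a mean of 1 to 5 FPKM. At an unadjusted p under 0.05, 4 members were higher and 7 lower, 7.01% against 13.6% of all tested genes. Among genes with a mean of 1 to 5 FPKM the shares were 7.8% of members and 12% of those tested. Voom called 0 members, against 1.76% of all genes. With so few calls over all genes, the count of 0 among the members is near the background.

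In TIS CM over No CM the median log2 fold change of the members was -0.02, with 58 above 0 and 99 below. That median was 0.003 over all tested genes and also -0.02 for zinc finger genes of other chromosomes. It was -0.03 for members with a KRAB box and 0.01 for those without one, and with equal library sums these were -0.06 and -0.03. Removal of the GC and length trend left the median over all members at -0.0215, with 57 above 0. The class medians were then -0.0262 with a KRAB box, with 44 of 132 above 0, and 0.0003 without one, with 13 of 25 above 0. The 95% interval lay inside a 1.5-fold change for 156 of 157 members, against 97.7% of protein-coding genes with a mean of at least 1 FPKM. The exception was ZNF256, which with a log2 difference of 0.31 ± 0.16 (SE, n = 3 each) also had the highest fold change. ZNF256 had 1.30, 1.18 and 1.06 FPKM in TIS CM, against 1.21, 0.70 and 0.71 FPKM in No CM. Its No CM replicate 1 lay within the TIS CM range, and it had the fewest fragments of any member. The groups did not overlap for 8 members that were higher and 14 that were lower, 14.0% of the members, against 24.4% of all tested genes. At a mean of 1 to 5 FPKM it was 15.6% of members and 21.4% of tested genes. ZNF888 had the lowest adjusted p among the members, 0.122 by limma. It had 1.90, 1.85 and 1.94 FPKM in TIS CM, against 2.28, 2.37 and 2.26 FPKM in No CM, with no overlap. ZNF784, ZNF256 and ZNF888 were singled out after their values were seen.

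**Figure D5:**
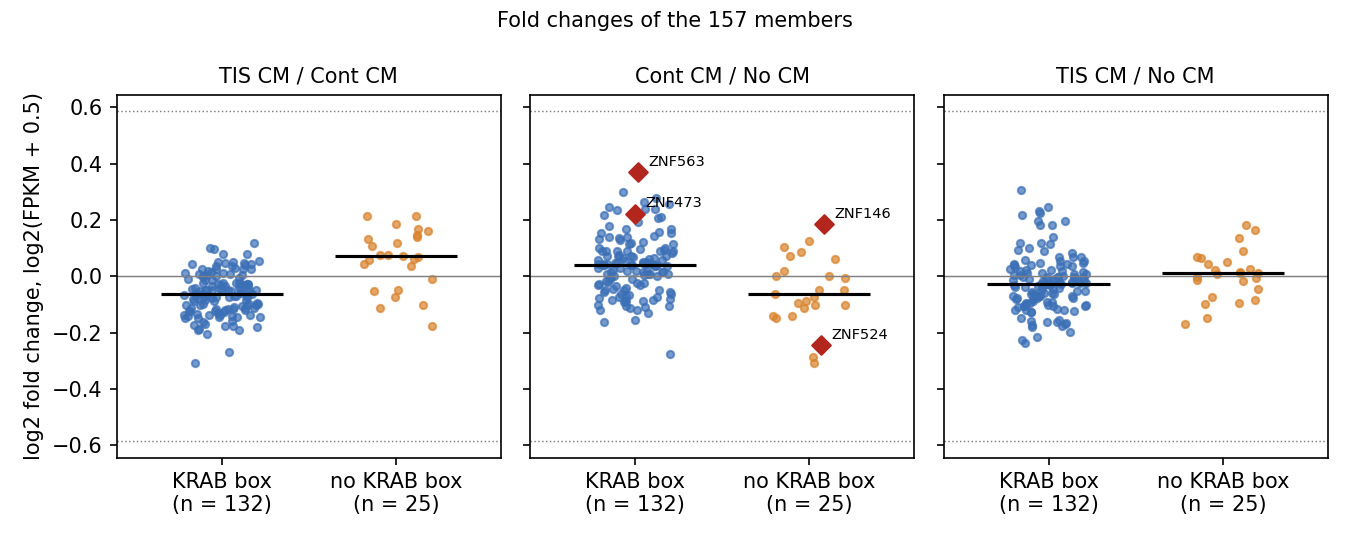
Log2 fold change of each member on the log2(FPKM + 0.5) scale, for TIS CM over Cont CM, Cont CM over No CM and TIS CM over No CM, with members split by KRAB box. Black bars are medians, dotted lines mark a 1.5-fold change, and red diamonds are the 4 members called by limma; no member passes a 1.5-fold change in any comparison.

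Members with known roles were followed whether or not they passed a test. ZNF274, which in humans binds the last exons of zinc finger genes and recruits SETDB1 there, had 6.23, 5.83 and 5.83 FPKM in TIS CM, 5.63, 6.31 and 5.93 FPKM in Cont CM, and 5.91, 5.67 and 5.71 FPKM in No CM. The 3 groups overlapped. Its log2 difference between TIS CM and Cont CM was 0.0019 ± 0.05 (SE, n = 3 each). ZNF91 had 1.63, 1.54 and 1.53 FPKM in TIS CM, 1.55, 1.99 and 1.62 FPKM in Cont CM, and 1.78, 1.43 and 1.54 FPKM in No CM. Here too the groups overlapped, and Cont CM replicate 2 was the highest library. ZNF331, an imprinted gene, averaged 1.70 ± 0.04 FPKM in TIS CM, 1.66 ± 0.03 FPKM in Cont CM and 1.74 ± 0.16 FPKM in No CM (SD, n = 3 each). ZNF420, a KRAB protein known to restrain p53 activity, averaged 2.28 ± 0.17, 2.57 ± 0.31 and 2.45 ± 0.07 FPKM in TIS CM, Cont CM and No CM (SD, n = 3 each). None of these 4 passed the limma threshold in any comparison.

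The members lay in clusters along the chromosome, taken as runs of zinc finger genes of any level whose starts were at most 1000000 bases apart. The distal cluster, from 55476332 to 58481230, held 43 members of 59 genes, 30 of them with a KRAB box. Its median log2 difference was 0.01 in TIS CM over Cont CM, with 25 of 43 above 0. The cluster from 51571298 to 53580269 held 28 members of 39 genes, all with a KRAB box, and had a median of -0.06. In the cluster near the centromere, from 19668796 to 24129961, 22 of 37 genes were members, all with a KRAB box and at a median GC content of 37.4%, and the median difference was -0.08. In the cluster from 36182060 to 37817300, 14 of 26 genes were members, with a median of -0.10 and 1 of 14 above 0. The clusters differ in GC content and in their share of members with a KRAB box, and in Cont CM over No CM the same 4 clusters had medians of 0.002, 0.03, 0.05 and 0.06.

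The 32 genes of the family between 0.5 and 1 FPKM were tested in the same fit, and none was called in any comparison. Their median log2 difference was -0.08 in TIS CM over Cont CM, 0.05 in Cont CM over No CM and -0.05 in TIS CM over No CM. These lie on the same sides as the members' medians. With the GC and length trend of each library removed, they were -0.0452, 0.00259 and -0.0481. The members' median in Cont CM over No CM was then -0.00179, so the sides no longer matched there.

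KRAB proteins act through partners, and a list of 35 genes for TRIM28, heterochromatin proteins, histone methyltransferases and related silencing factors was followed, of which 34 were tested. In TIS CM against Cont CM, 1 was called higher by limma and 1 lower, and 32 did not pass, a count near the 2.9% and 1.57% of all tested genes. SUV39H1, a histone methyltransferase, had 16.4, 14.9 and 14.6 FPKM in TIS CM, against 12.2, 13.3 and 12.9 FPKM in Cont CM, with an adjusted p of 0.0406. FAM208A, a subunit of the HUSH silencing complex, had 10.3, 10.5 and 10.6 FPKM in TIS CM, against 12.4, 12.2 and 12.3 FPKM in Cont CM, with an adjusted p of 0.0286. Neither pair of groups overlapped. The call of SUV39H1 was lost when any 1 of the 9 libraries was left out, and that of FAM208A without any 1 of the TIS CM libraries or without Cont CM replicate 2 or 3. Both calls were also lost with the GC and length trend removed, with the replicate block and in a fit of only the 2 groups, and that of SUV39H1 with no filter on low values.

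In Cont CM against No CM, 3 of the 34 were called higher and 7 lower by limma, beside the 7.77% and 8.56% of all tested genes. The higher genes were CBX1, a heterochromatin protein, DAXX, a histone chaperone partner of ATRX, and MORC3, a nuclear ATPase. The lower ones were TRIM28, SETDB1, RBBP7, UHRF1, SUV39H1, EHMT2 and TRIM24. TRIM28 had 83.0, 80.3 and 81.5 FPKM in Cont CM, against 89.2, 93.5 and 93.2 FPKM in No CM. All Cont CM libraries lay below all No CM libraries, and the log2 difference was -0.17 ± 0.04 (SE, n = 3 each), with an adjusted p of 0.0135 by limma. SETDB1, the methyltransferase that TRIM28 recruits, had 3.252, 3.678 and 3.408 FPKM in Cont CM, against 4.218, 3.931 and 3.996 FPKM in No CM, with an adjusted p of 0.0347 by limma. In TIS CM the same genes had 85.4 to 90.2 FPKM and 3.66 to 3.73 FPKM, and limma called no partner gene in TIS CM against No CM. TRIM24 was called lower there by voom, and by limma with equal library sums, in a fit of only the 2 groups, with the GC and length trend removed and without Cont CM replicate 1. CBX3 and CBX5 did not pass in any comparison. With the GC and length trend removed, 4 were called higher and 6 lower in Cont CM against No CM. CBX1, DAXX, MORC3, RBBP7, TRIM24 and SETDB1 were among these, while TRIM28, UHRF1, SUV39H1 and EHMT2 were not. CBX3 was then called lower. Single omissions went otherwise: the call of TRIM28 was lost only without No CM replicate 3. Those of SETDB1, RBBP7 and TRIM24 were kept only without Cont CM replicate 2. Without Cont CM replicate 3, 3 were higher and 2 lower, and without No CM replicate 1, 2 or 3 the calls were 1 and 1, 2 and 3, and 2 and 1.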

How the data were processed

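Polyadenylated RNA of 9 MDA-MB-231 libraries was analysed, grouped by the treatment label. Per the submitters' processing notes, which give no roles, the tools were HISAT2 2.0.5 and featureCounts 1.5.0-p3, with fastp, DESeq2 1.20.0 and build hg38 also named. FPKM per gene were deposited by the authors beside gene length and position. Multiplied by length, 100% of values were whole multiples of 1 step per library, within 0.01, which allowed fragments to be recovered, and totals ran between 32636708 and 39189036 per library. The 13912 genes averaging 0.5 FPKM or more were tested with limma 3.58.1 (R 4.3.3) on log2(FPKM + 0.5), with group means, an intensity trend and Benjamini-Hochberg adjustment over all of them. The fit was tested on simulated data. Figures were drawn with matplotlib 3.10.9.

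KRAB boxes and fingers were found by patterns in coding sequences of the GENCODE 29 transcripts, translated in the annotated frame, and GC content is that of the longest transcript; 3 tested genes had none. Motifs were counted in a single RefSeq promoter per gene, chosen for members by the nearest start and for other sets by lowest coordinate. GC and length trends were removed per library with splines of 4 degrees of freedom each.

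The members, lists and tests were chosen with earlier results of these data known. Named genes are called members without overlap between groups, the 6 highest members, 3 genes on each side of the threshold, a short list of members with known roles, and partner genes that were called or that carry the core of the complex. ZNF382, on that list, lay under the threshold. The alternatives were 2 other pseudocounts, 2 other filters, a fit of protein-coding genes alone, 2 other scalings, voom with recovered fragments, only the 2 groups compared, a replicate block, removal of the GC and length trend, both of these together, and each library left out.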

Additional observations from a re-analysis of the deposited data

How the results depend on the processing

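Over the named genes and alternatives, 1056 values kept their direction and side of the threshold, 46 lost the call, 7 gained one and 79 changed sign, none of the last called in either fit. In TIS CM against Cont CM, 1 member was called with equal library sums, quantile normalization or voom, and 0 to 4 when single libraries were left out; the 4, without Cont CM replicate 1, were ZNF146, ZNF787, ZNF524 and ZNF581. In Cont CM against No CM, 0 were called with no filter, 0 in a fit of only the 2 groups, 2 with the GC and length trend removed, and 0 to 9 when single libraries were left out. The adjusted p values of the 4 calls ran over 0.00646 to 0.123 for ZNF146, 0.0196 to 0.0941 for ZNF473, 0.0131 to 0.094 for ZNF563 and 0.00566 to 0.127 for ZNF524. In TIS CM against No CM the count was 0 under every alternative run.

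No pairing by replicate number was seen in the values, where same-numbered libraries had correlated deviations of -0.19 to 0.084 and others of -0.13 to 0.2. Such values cannot show that the samples were unpaired. With the replicate block, 2 members were called in Cont CM against No CM, and 0 with the block and the GC and length trend removed together. The members' median was -0.0242 in TIS CM over Cont CM and -0.00179 in Cont CM over No CM with the trend removed, with or without the block, and -0.0577 in TIS CM over No CM with equal library sums. When single libraries were left out, it ran over -0.0661 to -0.0297, 0.0134 to 0.0378 and -0.031 to -0.0154 in the 3 comparisons. Over all genes, 623, 2272 and 119 were called in TIS CM against Cont CM, Cont CM against No CM and TIS CM against No CM, with 11 to 1084, 1075 to 2770 and 9 to 365 when single libraries were left out and 9 to 1085, 1242 to 2694 and 4 to 331 under the other alternatives. The cause was not tested. Planned count-model tests were not run, because the table holds FPKM. Members had a median of 409 fragments per library and 3 had under 100, which limits what small differences can be told.

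The sign changes were not all of log2 differences near 0. In the main fit, ZNF358 had 0.147 in TIS CM over Cont CM and ZNF114 had 0.14 in Cont CM over No CM. With the GC and length trend removed, with or without the replicate block, TIS CM over Cont CM gave -0.00721 for ZNF358, -0.0381 for ZNF580 and -0.026 for ZNF671. Cont CM over No CM then gave 0.0954 for ZNF580, -0.0469 for ZNF708 and -0.00256 for ZNF549, and TIS CM over No CM gave -0.00555 for ZNF146, -0.00531 for ZNF708, -0.0065 for ZNF461 and 0.00128 for ZNF91. With equal library sums, TIS CM over Cont CM gave -0.0138 for ZNF708, -0.0143 for ZNF671 and -0.0212 for ZNF274, and Cont CM over No CM gave -0.00422 for ZNF358, -0.0131 for ZNF708 and -0.00608 for ZNF549. TIS CM over No CM then gave -0.0044 for ZNF473, -0.0405 for ZNF146, -0.0209 for ZNF428, -0.0269 for ZNF708 and -0.0261 for ZNF461. Quantile normalization gave -0.00343 for ZNF274 in TIS CM over Cont CM, with -0.0138 for ZNF146 and 0.00365 for ZNF91 in TIS CM over No CM, and voom gave -0.00602 for ZNF708 in TIS CM over Cont CM. When single libraries were left out, TIS CM over Cont CM ran over -0.129 to 0.189 for ZNF114, -0.0423 to 0.0656 for ZNF708, -0.0521 to 0.0538 for ZNF671 and -0.0353 to 0.0413 for ZNF274. Cont CM over No CM ran over -0.0261 to 0.0912 for ZNF358, -0.0706 to 0.248 for ZNF114, -0.0253 to 0.0284 for ZNF549, -0.0271 to 0.101 for ZNF420, -0.0863 to 0.0795 for ZNF580, -0.0537 to 0.0444 for ZNF708, -0.137 to 0.061 for ZNF671 and -0.0612 to 0.0483 for ZNF441. TIS CM over No CM ran over -0.0507 to 0.068 for ZNF708, -0.0726 to 0.0894 for ZNF461, -0.0114 to 0.0386 for ZNF146, -0.135 to 0.0635 for ZNF671, -0.0636 to 0.0577 for ZNF91, -0.0186 to 0.0878 for ZNF428, -0.0862 to 0.0142 for ZNF331 and -0.013 to 0.153 for ZNF580.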
